A study of Mus musculus with 6 samples.

Results

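The genes described here are the 10 nuclear factors that transcribe, replicate, stabilize or degrade mitochondrial RNA and DNA, namely *Polrmt*, *Tfam*, *Tfb2m*, *Tfb1m*, *Mterf3*, *Lrpprc*, *Slirp*, *Pnpt1*, *Supv3l1* and *Twnk*. They were taken by function and matched by symbol among the 56748 genes of the deposited count table. The RNA came from naïve CD4 T cells of wild-type C57BL/6J mice aged 6 to 10 weeks, isolated from spleen and lymph nodes, activated through CD3 and CD28 and kept under Treg polarizing conditions (IL-2, TGF-β and antibodies to IFNγ and IL-4). An antisense oligonucleotide (ASO), a short synthetic strand that binds a matching RNA, was present at 10 μM from the start of the 3 days of culture. In 3 libraries the ASO was labelled scrambled, and in the other 3 it was labelled as directed at *Pgam*, with sequences that are proprietary. The cells were not sorted, so each library mixes cells that had and had not become Tregs. Total counts ran from 15860476 to 18032805 per library. Expression is given as CPM, counts scaled to library size with TMM factors, and n is 3 per label throughout.

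Mitochondria carry a small circular genome of their own, which is copied along nearly its whole length from promoters in a single control region. The long precursor RNAs are then cut into rRNAs, tRNAs and mRNAs, so the amount of each mature RNA depends on transcription, on cutting and on how fast the RNA is degraded. Every protein that does this is encoded in the nucleus, and activated T cells expand their mitochondria as they grow.

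The targeted genes were looked at first. *Pgam1* had 10655, 8847 and 11414 counts under the scrambled label and 10601, 10299 and 11949 under the *Pgam* label, and *Pgam2* had 93, 125 and 46 against 48, 42 and 44. Neither differed by edgeR's quasi-likelihood test (log2 fold changes 0.18 and -0.84, adjusted p = 0.331 and 0.0854). Without scrambled replicate 3 the value of *Pgam2* was -1.11 (edgeR adjusted p = 0.0144), when low counts were not filtered it was -0.83 (edgeR adjusted p = 0.0292), and without scrambled replicate 2 it was -0.56 (edgeR adjusted p = 0.286). Counts of mRNA do not measure PGAM protein. The groups are therefore called scrambled-labelled and *Pgam*-labelled libraries, and every direction below is that of the labels.

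All 10 factors had enough counts to be tested. With an adjusted p under 0.05 as the threshold, 1 of 10 was higher in the *Pgam*-labelled libraries (*Lrpprc*), where 8.03% of the 14936 tested genes were higher, and 0 of 10 were lower, where 9.15% were. DESeq2 and limma-voom also called 1 higher and 0 lower, and no factor was lower at an unadjusted p under 0.05 in edgeR. In either direction 17.2% of tested genes were called, so the share among the factors was not above that of the transcriptome. The median log2 fold change of the 10 was 0.10, beside -0.01 for all tested genes, and single values ran from -0.11 to 0.79. The 95% confidence interval lay within 0.5 log2 units of 0 for 7 of the 10 and within 1 for 9. The groups did not overlap for 2 of the 10 (*Lrpprc* and *Pnpt1*), both higher, whereas 39.5% of tested genes had groups that did not overlap (19.6% higher and 19.8% lower). The plot of expression by library shows these values, and the plot of changes shows the intervals.

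**Figure D1:**
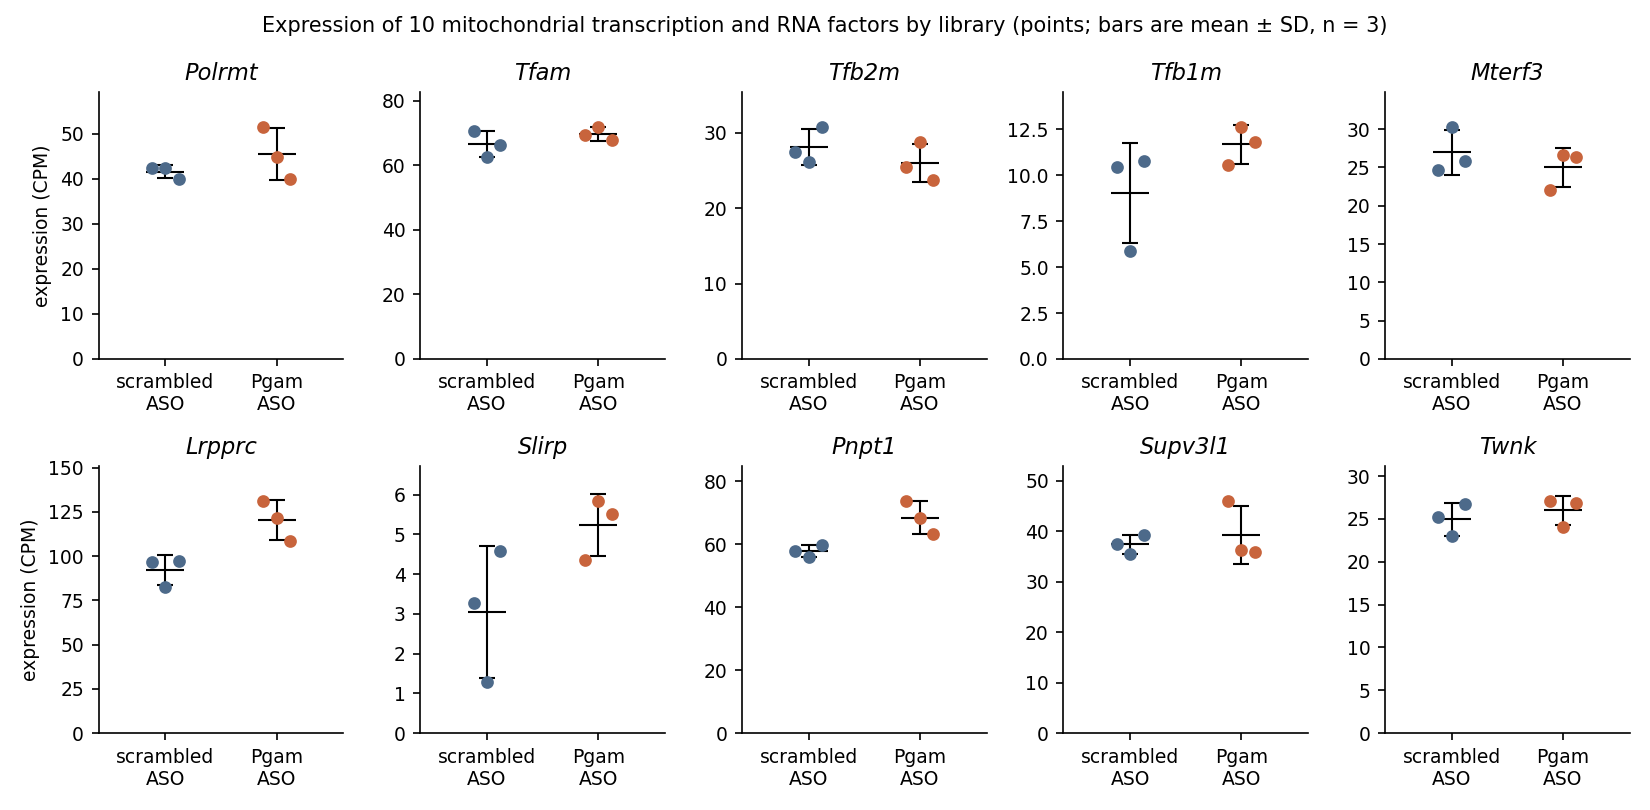
Expression (CPM, axis from 0) of each of the 10 factors in the 3 scrambled-labelled libraries (blue) and the 3 Pgam-labelled libraries (orange), with bars for mean ± SD. The groups are apart for Lrpprc and Pnpt1 and overlap for the other 8.

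**Figure D2:**
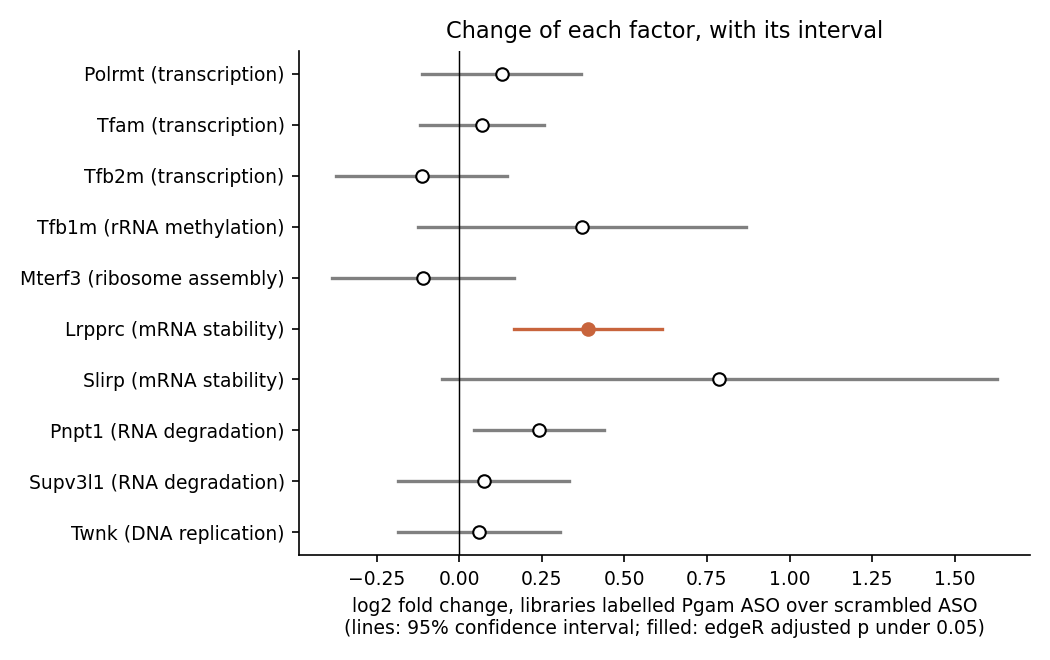
Log2 fold change of each factor, Pgam label over scrambled label, with its 95% confidence interval from edgeR. Only Lrpprc, filled, passed an adjusted p of 0.05, and the interval of Slirp is the widest.

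*Polrmt* encodes the RNA polymerase of mitochondria and lies on the minus strand of chromosome 10 from 79736123 to 79746581 (GRCm38). It had 42.3, 42.5 and 39.9 CPM in scrambled-labelled replicates 1, 2 and 3 and 51.5, 44.8 and 40.0 CPM in the *Pgam*-labelled ones. *Pgam*-labelled replicate 1 was above all other libraries and replicate 3 lay among the scrambled-labelled values. The log2 fold change was 0.13 with a 95% interval from -0.11 to 0.37 (edgeR adjusted p = 0.432). *Tfam*, whose product bends and packages mitochondrial DNA and opens its promoters, had 70.7, 62.5 and 66.4 CPM against 69.4, 72.0 and 67.9 CPM. The groups overlapped, and the interval of the log2 fold change of 0.07 was the narrowest of the 10, from -0.12 to 0.25 (edgeR adjusted p = 0.597). *Tfb2m* encodes the factor that melts the promoter together with the polymerase. It had 27.5, 26.1 and 30.8 CPM against 25.5, 28.7 and 23.7 CPM, again with overlap, and a log2 fold change of -0.11 (interval -0.37 to 0.14, edgeR adjusted p = 0.516). The pseudogene *Gm1818* shares 35.2% of the 31-base stretches of *Tfb2m*, which matters because Kallisto has to divide such reads, and the summed counts of both gave -0.09. None of the 3 genes that make up the basal transcription machinery thus differed beyond the spread between replicates.

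*Tfb1m* is the paralog of *Tfb2m* that methylates the small rRNA of the mitochondrial ribosome. Its values were 10.5, 5.89 and 10.8 CPM against 10.6, 12.6 and 11.8 CPM. Scrambled-labelled replicate 2 was low, and replicate 3 of that label was above the lowest *Pgam*-labelled library, which is an overlap. The log2 fold change was 0.37 (interval -0.13 to 0.87, edgeR adjusted p = 0.267), and without scrambled replicate 2 it was 0.14. *Mterf3* belongs to a family of proteins that bind mitochondrial nucleic acids, and has been described both as a brake on transcription and in assembly of the mitochondrial ribosome. It had 24.7, 30.3 and 25.9 CPM against 22.05, 26.6 and 26.4 CPM. These groups overlapped, with a log2 fold change of -0.11 (interval -0.38 to 0.17, edgeR adjusted p = 0.562).

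*Lrpprc* encodes a protein with many RNA-binding repeats that holds mitochondrial mRNAs in a stable, polyadenylated state, together with the small protein SLIRP. The gene lies on the minus strand of chromosome 17 from 84705247 to 84790789. Its expression was 96.6, 82.3 and 97.1 CPM in the scrambled-labelled libraries and 131, 122 and 109 CPM in the *Pgam*-labelled ones. Every *Pgam*-labelled library was above every scrambled-labelled one, with means of 120.5 ± 11.2 and 92.0 ± 8.40 CPM (SD, n = 3). This is a log2 fold change of 0.39 (standard error 0.10, interval 0.17 to 0.61, edgeR adjusted p = 0.0290), or 1.31-fold. The size held when single libraries were left out, from 0.31 to 0.46, but the call did not. Without scrambled replicate 1 the edgeR adjusted p was 0.0814, without scrambled replicate 2 it was 0.0688, without *Pgam* replicate 1 it was 0.102 and without *Pgam* replicate 2 it was 0.118. In bulk RNA, more cells of a type and more RNA per cell cannot be told apart.

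*Slirp* was the least counted factor, with 58, 24 and 74 counts under the scrambled label and 70, 91 and 93 under the *Pgam* label. This corresponds to 3.26, 1.30 and 4.59 CPM against 4.35, 5.84 and 5.50 CPM. Scrambled replicate 2 was low and scrambled replicate 3 lay above the lowest *Pgam*-labelled library, so the groups overlapped. The log2 fold change of 0.79 was the largest of the 10 and the least certain, with an interval from -0.05 to 1.63 (edgeR adjusted p = 0.168). Without scrambled replicate 3 it was 1.201 (edgeR adjusted p = 0.0433), and with no filter on low counts it was 0.80 (edgeR adjusted p = 0.0339). Without scrambled replicate 2, the low library, it was 0.42 (edgeR adjusted p = 0.349). Over all alternatives the adjusted p of *Slirp* ran from 0.0339 to 0.492. *Slirp* lies on the plus strand of chromosome 12 from 87443896 to 87452206, where its end overlaps *Snw1* on the other strand. As many as 91.2% of its 31-base stretches also occur in annotated *Snw1* transcripts, so the count of *Slirp* is uncertain. *Snw1* had 1393, 1381 and 1230 counts against 1131, 1125 and 1130, and the sum of the pair, which is mostly *Snw1*, had a log2 fold change of -0.08 (adjusted p = 0.492 by edgeR).

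*Pnpt1* and *Supv3l1* encode the ribonuclease and the helicase that degrade mitochondrial RNA as a complex. *Pnpt1*, on the plus strand of chromosome 11 from 29130744 to 29161828, had 57.8, 56.0 and 59.8 CPM against 73.7, 68.3 and 63.2 CPM. All 3 *Pgam*-labelled libraries were above the scrambled-labelled ones, and the log2 fold change was 0.24 (interval 0.04 to 0.44). The unadjusted p of 0.0210 did not survive adjustment over all genes (edgeR adjusted p = 0.0834), except without *Pgam* replicate 3, where the log2 fold change was 0.30 and the adjusted p 0.0498. Over all alternatives that adjusted p ran from 0.0498 to 0.257. *Supv3l1* had 37.5, 35.4 and 39.2 CPM against 46.0, 36.2 and 35.8 CPM. Only *Pgam*-labelled replicate 1 stood above the scrambled-labelled range, and the log2 fold change was 0.07 (interval -0.19 to 0.33, edgeR adjusted p = 0.692). Without that library it turned to -0.05.

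*Twnk* encodes Twinkle, the helicase that unwinds mitochondrial DNA ahead of its polymerase. It had 25.2, 23.0 and 26.8 CPM against 27.1, 24.1 and 26.9 CPM. The 2 groups covered nearly the same range, with a log2 fold change of 0.06 (interval -0.19 to 0.30, edgeR adjusted p = 0.738). *Twnk* shares 12.1% of its stretches with its neighbour *Mrpl43*, and the sum of both gave 0.09.

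Levels can be compared between genes once divided by transcript length, for which the longest principal protein-coding transcript of GENCODE M21 was used. In the scrambled-labelled libraries *Pnpt1* had the highest level, 21.4 ± 0.699 CPM per kb, followed by *Lrpprc* at 20.9 ± 1.91, *Mterf3* at 18.2 ± 1.99, *Tfam* at 15.97 ± 0.976 and *Supv3l1* at 14.4 ± 0.729 (SD, n = 3). Each neighbouring pair among these 5 overlapped in its range over replicates. *Tfb2m* at 11.5 ± 0.979 and *Polrmt* at 11.1 ± 0.382 CPM per kb overlapped each other and lay below the first 5. *Twnk* at 7.16 ± 0.550 and *Tfb1m* at 6.45 ± 1.95 CPM per kb came next, and also overlapped. *Slirp* was below all others, at 1.13 ± 0.613 CPM per kb. The order depends on the transcript for 5 of the 10, whose shortest coding transcript is shorter than the one used. With the shortest, the mean per kb would be 141 for *Tfam*, 69.9 for *Mterf3*, 32.3 for *Polrmt*, 11.4 for *Twnk* and 9.10 for *Slirp*. Only *Pnpt1*, *Lrpprc*, *Supv3l1*, *Tfb2m* and *Tfb1m* have the same level either way, and they keep this order among themselves.

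Ratios within a library do not depend on how libraries are scaled. The log2 ratio of *Pnpt1* to *Supv3l1* counts was 0.62, 0.66 and 0.61 in the scrambled-labelled libraries and 0.68, 0.92 and 0.82 in the *Pgam*-labelled ones. The *Pgam*-labelled values were all higher, by 0.17 on average (exact permutation p = 0.1, the smallest that 3 against 3 allows, adjusted p = 0.15 over the 3 ratios). The log2 ratio of *Tfb2m* to *Tfb1m* was 1.39, 2.15 and 1.51 against 1.27, 1.19 and 1.004. Here the *Pgam*-labelled values were all lower, with a mean difference of -0.53 (exact permutation p = 0.1, adjusted p = 0.15), and without scrambled replicate 2 the difference was -0.30. The log2 ratio of *Lrpprc* to *Slirp* was 4.89, 5.99 and 4.404 against 4.91, 4.38 and 4.31, which overlapped (exact permutation p = 0.4, adjusted p = 0.4). That difference was -0.56, and -0.11 without scrambled replicate 2. These tests were two-sided.

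**Figure D3:**
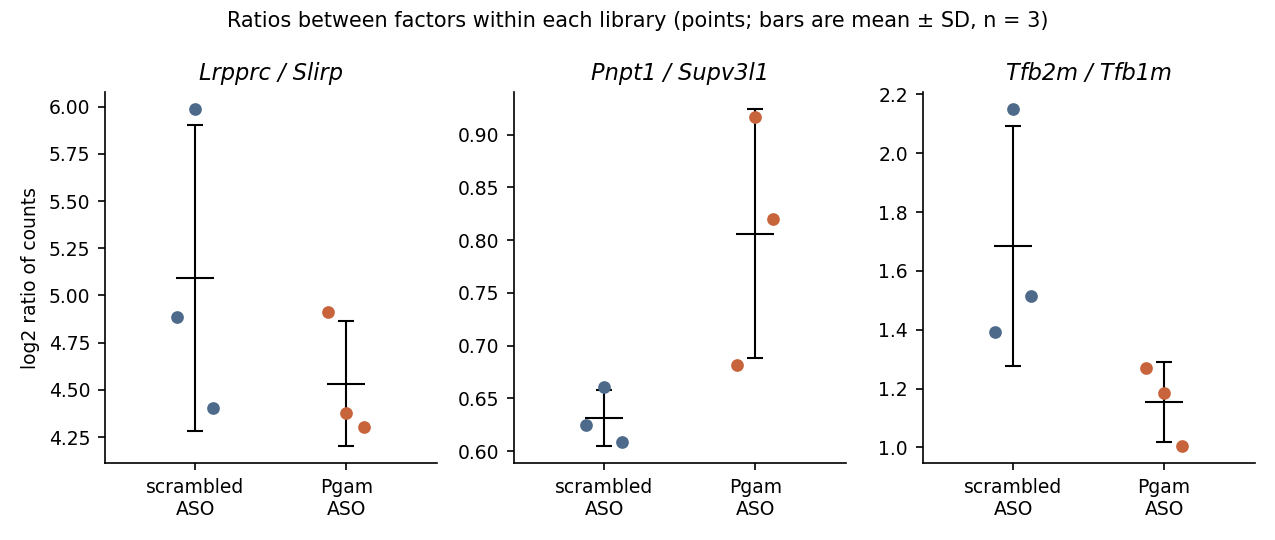
Log2 ratio of counts between paired factors in each library (points), with bars for mean ± SD, n = 3 per label. The Pgam-labelled libraries are all above the others for Pnpt1 over Supv3l1, all below for Tfb2m over Tfb1m, and overlap for Lrpprc over Slirp.

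Among all tested genes, the 5 whose log2 expression over the 6 libraries was most like that of *Lrpprc*, the factor with the lowest p, were *Mrto4*, *Ruvbl1*, *Mrps28*, *Il21* and *Prpf19*. Their Pearson r with *Lrpprc* ran from 0.998 to 0.9995, and all points share the difference between labels. *Mrto4*, which acts in ribosome assembly, had 54.8, 42.2 and 56.7 CPM against 95.2, 83.7 and 68.8 CPM. As in *Lrpprc*, scrambled-labelled replicate 2 was the lowest library and *Pgam*-labelled replicate 1 the highest. *Mrps28*, a protein of the small subunit of the mitochondrial ribosome, followed the same order with 15.9, 11.9 and 16.2 against 26.1, 22.6 and 19.2 CPM. The log2 fold changes of *Il21*, *Ruvbl1* and *Prpf19* were 2.53, 0.55 and 0.54. These genes were picked for their likeness to *Lrpprc*, so the shared order follows from that choice. Among the other 9 factors, *Pnpt1* was most like *Lrpprc* (r = 0.972), and *Mterf3* was least like it (r = -0.746).

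The 10 factors were then set beside 90 other nuclear genes of the same pathways in 7 lists, of which 88 were tested, 11 were higher and 2 were lower. The higher ones are 12.5% of those tested, beside 8.03% of all tested genes, and the lower ones 2.27%, beside 9.15%. Of 6 other transcription factors and topoisomerases, 0 were higher and 1 was lower, with a median log2 fold change of -0.34. The one called was *Mterf2*, a relative of *Mterf3* that binds mitochondrial DNA, with 12.1 ± 0.613 CPM under the scrambled label and 7.91 ± 0.540 under the *Pgam* label (SD, n = 3; log2 fold change -0.61, edgeR adjusted p = 0.0235). *Mterf2* shares 20.8% of its stretches with *Tmem263*, which had 593, 588 and 611 counts against 611, 632 and 643, more than *Mterf2* itself. With the 2 summed the log2 fold change was 0.01 (adjusted p = 0.9496 by edgeR), a sum that is mostly *Tmem263*. The part of read division in the value of *Mterf2* was not tested. *Mterf1a* and *Mterf1b*, 2 copies of which the first shares 30.2% of its stretches with the other, had a log2 fold change of -0.45 when summed (edgeR adjusted p = 0.0883). Of 13 genes for mitochondrial DNA replication, 0 were higher and 1 was lower, with a median of 0.05. *Polg2*, the accessory subunit of the mitochondrial DNA polymerase, fell from 18.6 ± 3.69 to 11.4 ± 1.17 CPM (SD, n = 3; log2 fold change -0.71, edgeR adjusted p = 0.0236). The catalytic subunit *Polg* had a log2 fold change of 0.05 (adjusted p = 0.663 by edgeR).

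Of 25 genes that cut, polyadenylate, bind or trim mitochondrial RNA, 6 were higher and 0 lower, with a median log2 fold change of 0.20. This 24.0% stands beside the 8.03% of all tested genes that were higher. *Rexo2*, which removes short RNA fragments, was at 107 ± 3.93 CPM under the scrambled label and 133 ± 5.48 under the *Pgam* label (SD, n = 3; log2 fold change 0.32, edgeR adjusted p = 0.0247). *Elac2*, which cuts the 3′ ends of tRNAs out of the precursor, had a log2 fold change of 0.39 (adjusted p = 0.0300 by edgeR). *Pde12*, which removes poly(A) tails in mitochondria, had 0.35 (edgeR adjusted p = 0.0321), and *Tbrg4*, an RNA-binding protein of the FASTK family that keeps mitochondrial mRNAs stable, had 0.48 (edgeR adjusted p = 0.0398). Each of these 4 was higher in all 3 *Pgam*-labelled libraries than in any scrambled-labelled one, as were 19.6% of all tested genes. The other called genes of this list were *Fastkd3* (0.44, edgeR adjusted p = 0.0454), whose groups also did not overlap, and *Rcc1l* (0.61, edgeR adjusted p = 0.0499), whose groups overlapped. Of 19 genes that modify mitochondrial RNA, 1 was higher and 0 were lower, with a median of 0.09, and the one was the pseudouridine synthase *Pus1* (log2 fold change 0.58, edgeR adjusted p = 0.0226). As with *Lrpprc*, these calls were sensitive to single libraries. Of the 13 pathway genes called, 0 were called in every fit that left out 1 library, and 11 pathway genes were called when sums over shared stretches were used. In all, 0 pathway genes were called without scrambled replicate 1, without *Pgam* replicate 1 or without *Pgam* replicate 2, 2 were called without scrambled replicate 2, 19 without scrambled replicate 3 and 22 without *Pgam* replicate 3.

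**Figure D4:**
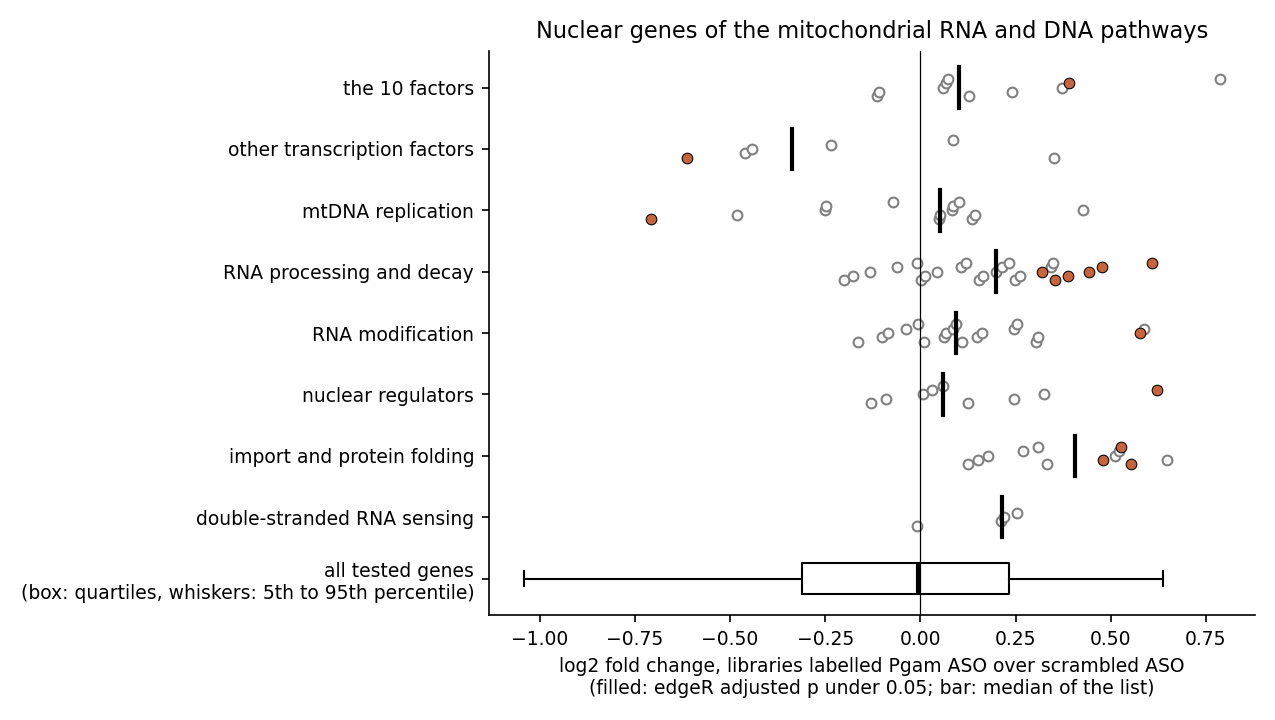
Log2 fold change of each tested gene in the list of 10 factors and the 7 other lists, with list medians as bars, filled where the edgeR adjusted p was under 0.05, and all 14936 tested genes as a box. The called genes lie to the right for RNA processing (6 of 25) and to the left for other transcription factors (1 of 6) and replication (1 of 13).

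Transcription of many of these factors is known to be driven by NRF1 and by the ETS-family factor GABP, with coactivators of the PGC-1 family. A list of 10 regulators held genes of these factors and coactivators, and also *Esrra*, *Yy1* and *Myc*. Of the 10, 9 were tested, 1 was higher and 0 were lower, with a median log2 fold change of 0.06. The 11.1% higher stands beside 8.03% of all tested genes. *Nrf1* had 72.1 ± 6.85 CPM against 78.6 ± 3.79 CPM (SD, n = 3; log2 fold change 0.12, edgeR adjusted p = 0.376), and *Gabpa* had 85.8 ± 4.30 against 86.2 ± 2.45 CPM (log2 fold change 0.01, edgeR adjusted p = 0.959). The regulator that rose was the PGC-1-related coactivator *Pprc1*, from 97.2 ± 13.3 to 149 ± 33.6 CPM (SD, n = 3; log2 fold change 0.62, edgeR adjusted p = 0.0321). *Pprc1* was called in only 1 of the 6 fits that left out a library. Without *Pgam* replicate 1 its log2 fold change was 0.44 (edgeR adjusted p = 0.0819). *Ppargc1a*, the founding coactivator of the PGC-1 family, had a count of 0 in all 6 libraries, which allows at most 3 counts per library.

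Promoter windows of 300 bases from RefSeq (GRCm38.p6), 250 before to 50 after the start, were found for 9 of the 10 factors, all but *Mterf3*, with 2 for *Twnk*. The NRF1 core GCGCATGC, the ETS core CCGGAAG and the E-box CACGTG were searched on both strands. They occur in 2.71%, 8.86% and 7.15% of the 32851 windows of the table. Of the 10 windows, 2 held the NRF1 core (*Polrmt* and *Tfb2m*), 4 held the ETS core (*Polrmt*, *Tfam*, *Slirp* and 1 of *Twnk*) and 0 held the E-box. The windows of *Polrmt*, which holds both cores, of *Slirp*, which holds the ETS core 3 times, and of *Lrpprc*, the factor that rose, are printed with matches in capitals. They lie at chr10:79746532-79746831 (minus strand), chr12:87443646-87443945 (plus strand) and chr17:84790737-84791036 (minus strand).
Polrmt: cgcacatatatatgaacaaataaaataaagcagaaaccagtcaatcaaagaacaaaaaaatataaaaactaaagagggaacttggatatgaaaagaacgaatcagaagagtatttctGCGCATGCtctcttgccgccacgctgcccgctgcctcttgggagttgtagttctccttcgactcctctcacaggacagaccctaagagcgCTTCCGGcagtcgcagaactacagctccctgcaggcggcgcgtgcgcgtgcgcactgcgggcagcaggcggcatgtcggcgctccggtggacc
Slirp: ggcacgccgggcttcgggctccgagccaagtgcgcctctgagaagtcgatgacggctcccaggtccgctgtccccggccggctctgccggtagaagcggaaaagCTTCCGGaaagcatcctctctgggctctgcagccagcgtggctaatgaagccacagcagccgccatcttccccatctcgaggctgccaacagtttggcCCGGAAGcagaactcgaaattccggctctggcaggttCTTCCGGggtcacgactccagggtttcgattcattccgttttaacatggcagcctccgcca
Lrpprc: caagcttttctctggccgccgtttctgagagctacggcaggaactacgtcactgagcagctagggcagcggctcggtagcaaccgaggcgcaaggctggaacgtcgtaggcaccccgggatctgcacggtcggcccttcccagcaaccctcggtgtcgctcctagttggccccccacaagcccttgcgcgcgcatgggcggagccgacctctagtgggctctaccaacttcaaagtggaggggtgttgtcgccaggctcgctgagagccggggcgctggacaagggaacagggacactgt
The *Lrpprc* window holds none of the 3 motifs. A match describes the letters of a window and is not a bound site.

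The mitochondrially encoded RNAs, on which these factors act, were looked at next. Of 13 mitochondrially encoded mRNAs, 12 were tested, 9 were lower in the *Pgam*-labelled libraries and 0 were higher, with a median log2 fold change of -0.67. They made up 1.84%, 2.01% and 1.83% of counts in the scrambled-labelled libraries and 1.10%, 1.26% and 1.14% in the *Pgam*-labelled ones, with no overlap (exact permutation p = 0.1, the smallest possible). Of the 9, 7 were called in every fit that left out 1 library, unlike *Lrpprc*. *mt-Cytb* fell most, from 2636 ± 78.3 to 1118 ± 137 CPM (SD, n = 3; log2 fold change -1.24, edgeR adjusted p = 0.000252). *mt-Co1*, the most counted, fell from 9443 ± 601 to 5604 ± 449 CPM (log2 fold change -0.75, edgeR adjusted p = 0.00116). The log2 fold changes of the other 7 were -0.37 for *mt-Nd2*, -0.60 for *mt-Nd6*, -0.66 for *mt-Co2*, -0.69 for *mt-Nd5*, -0.75 for *mt-Nd4*, -0.83 for *mt-Atp6* and -0.92 for *mt-Co3*. *mt-Nd2* lost its call in 5 of the 6 fits that left out a library and kept it only without scrambled replicate 2, and *mt-Co3* was called only without scrambled replicate 1 (-0.56) or 3 (-1.07). *mt-Nd1*, *mt-Nd3* and *mt-Nd4l* were not called (0.01, -0.09 and -0.62), and *mt-Atp8* had too few counts to be tested. Nuclear copies share nearly all stretches of *mt-Co2*, *mt-Atp6*, *mt-Co3*, *mt-Nd3* and *mt-Nd4l*, and with those copies summed *mt-Nd4l* was also lower (-0.65, edgeR adjusted p = 0.0307). The value of *mt-Nd3* moved from -0.09 to -0.65 with its copy *Gm28438* and was not called (edgeR adjusted p = 0.188). That copy had 364, 39 and 21 counts against 12, 21 and 12, so scrambled replicate 1 carries most of this move.

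Of the 2 rRNAs of the same genome, 1 was higher and 0 were lower. *mt-Rnr1* had 343, 382 and 316 CPM against 629.5, 826 and 809 CPM, a log2 fold change of 1.12 (adjusted p = 0.000768 by edgeR). *mt-Rnr2* had 683, 669.8 and 622 CPM against 689, 914 and 849 CPM, a log2 fold change of 0.31 (adjusted p = 0.0683 by edgeR). Without *Pgam* replicate 1 the log2 fold change of *mt-Rnr2* was 0.42 and was called (edgeR adjusted p = 0.0337), as it was with DESeq2 (0.32, adjusted p = 0.0327) and with no filter on low counts (0.32, edgeR adjusted p = 0.0101). It was not called by limma-voom (0.30, adjusted p = 0.0757), with library size alone (0.28, edgeR adjusted p = 0.106) or with any other library left out, where the weakest was without *Pgam* replicate 2 (0.22, edgeR adjusted p = 0.269). Along the plus strand the values of mRNAs and rRNAs tend to be lower with distance from its first base, though not in strict order. They run from *mt-Rnr1* at 0.546 kb and *mt-Rnr2* at 1.88 kb, through *mt-Nd1* at 3.23 kb and *mt-Nd2* at 4.43 kb, to *mt-Cytb* at 14.7 kb. Over the 13 tested mRNAs and rRNAs of that strand, Spearman's rho between log2 fold change and distance was -0.67, and over its 11 mRNAs alone it was -0.45. With nuclear copies summed, that of *mt-Nd3* included, rho over the 13 was -0.73. The tested tRNAs of that strand entered none of these rho values and were not called. Their log2 fold changes were -0.33 for *mt-Tl1* at 2.71 kb, -0.70 for *mt-Tw* at 4.98 kb and -0.72 for *mt-Tg* at 9.42 kb. Farther on they were -0.54 for *mt-Th* at 11.6 kb, -0.69 for *mt-Ts2* at 11.6 kb and -0.23 for *mt-Tl2* at 11.7 kb. These genes come from 1 precursor in the same 6 libraries, so this is a description. On the minus strand the tRNA gene nearest to the control region, *mt-Tp*, rose from 19.7 ± 2.13 to 57.2 ± 6.14 CPM (SD, n = 3; log2 fold change 1.54, edgeR adjusted p = 0.000251), while *mt-Nd6*, 1.61 kb from the first base of that strand, was lower. The other tested genes of that strand were not called and did not descend with distance, with log2 fold changes of -0.45 for *mt-Te* at 1.32 kb, -0.27 for *mt-Ty* at 10.1 kb, 0.03 for *mt-Tc* at 10.2 kb and -0.28 for *mt-Tn* at 10.3 kb. *mt-Tp* and the order by distance were singled out after their values were seen, and *mt-Tp* was the only one of 11 tested tRNAs called. The RNA was selected by poly(A) tail, which rRNAs and tRNAs mostly lack, and counting by strand is not stated in the sources used here, so the *mt-Tp* count may hold RNA of either strand. The part of poly(A) selection in these differences was not tested.

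**Figure D5:**
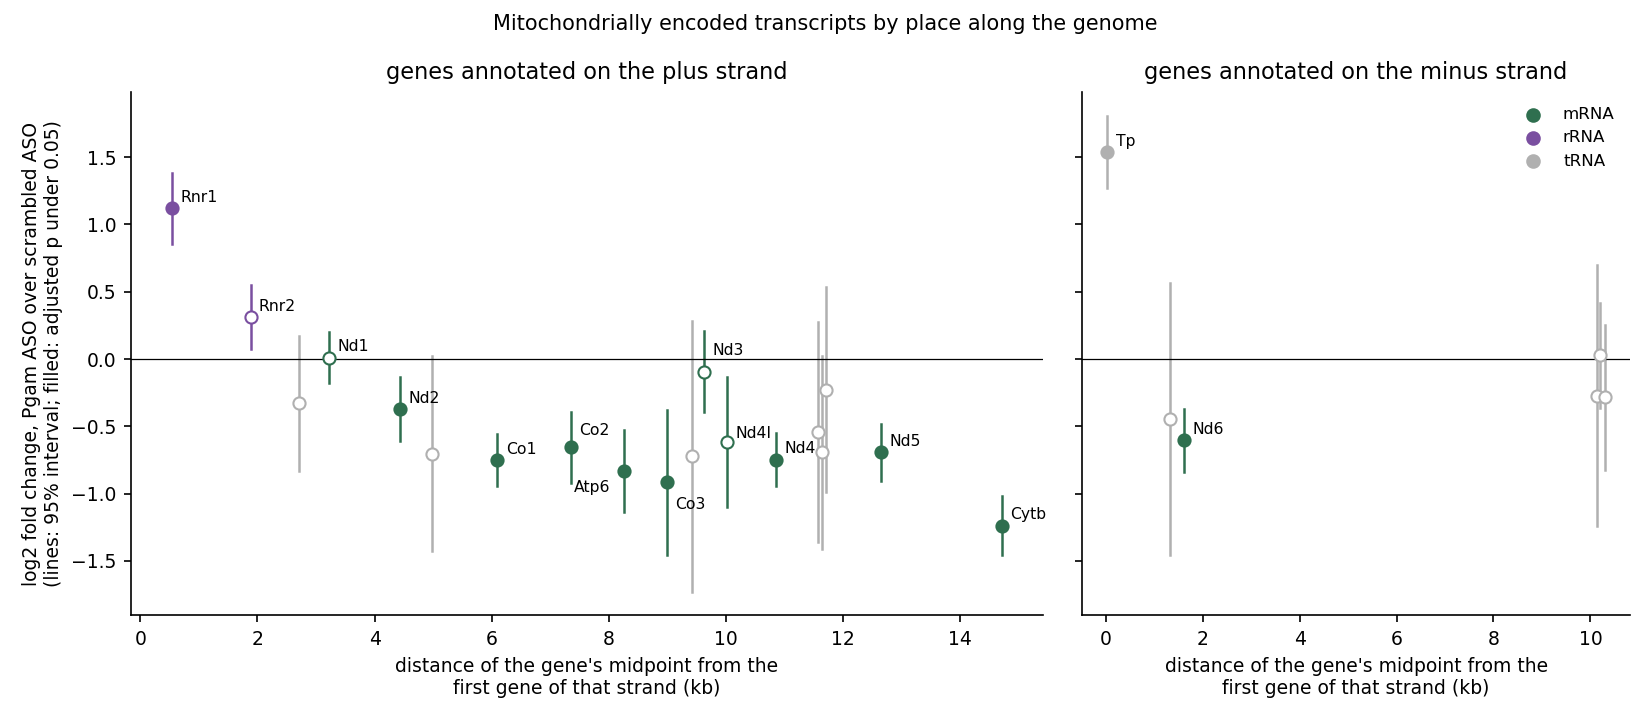
Log2 fold change of each tested mitochondrially encoded transcript, with its 95% interval, against the distance in kb of its midpoint from the first gene of its strand (left, plus strand; right, minus strand). The transcripts nearest the start, Rnr1 and Tp, are highest (1.12 and 1.54), and Cytb, the farthest mRNA, is lowest (-1.24).

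Cell type markers were looked at in the same libraries. The naïve cells had been enriched by negative selection, which is meant to remove B, NK and CD8 T cells. Of 7 T cell markers 0 were higher and 2 lower, *Cd28* (-0.66, edgeR adjusted p = 0.00183) and *Cd5* (-0.49, edgeR adjusted p = 0.0193), their summed expression was 2806, 3019 and 2617 CPM against 2273, 2275 and 2387 CPM, and *Cd4* was the most abundant. Of 5 Treg markers 1 was higher (*Il2ra*, log2 fold change 0.52) and 2 were lower, *Foxp3* (-1.41, edgeR adjusted p = 0.00567) and *Ikzf2* (-0.57, edgeR adjusted p = 0.0484), with sums of 3029, 2886 and 3331 CPM against 3722, 3750.1 and 3378 CPM. These sums are mostly *Il2ra*, the most abundant, at 1929 ± 295 against 2768 ± 236 CPM (SD, n = 3), while the other 4 had log2 fold changes below 0. Of 5 B cell markers 1 was lower, the most abundant one, *Ighm* (-1.58, edgeR adjusted p = 0.0282), and the sums were 328, 457 and 221 CPM against 82.8, 118 and 149 CPM. Of 2 CD8 T cell markers *Cd8a* was higher (1.12, edgeR adjusted p = 0.0286) and *Cd8b1*, the more abundant, was not called (-0.20), and their sum lay between 10.8 and 15.7 CPM. Of 3 NK cell markers, *Eomes* was lower (-0.82) and the most abundant, *Klrb1c* was at 0 in all libraries and *Ncr1* had at most 2 counts, and the sum was 52.6, 32.2 and 55.0 CPM against 28.3, 26.9 and 24.1 CPM. Of 4 mast cell and basophil markers *Kit* was lower (-1.68, edgeR adjusted p = 0.0142) and the most abundant under the scrambled label, *Cpa3* had 1.09 and was not called (edgeR adjusted p = 0.0526), and the sum lay between 4.78 and 7.37 CPM. The 5 myeloid markers, led by *Lyz2*, summed to between 1.80 and 3.51 CPM and the 4 erythroid markers, led by *Alas2*, to between 1.30 and 2.76 CPM, with 0 called in both lists by edgeR. Of the 9 called markers, *Cd28* and *Foxp3* were called in all 6 fits that left out a library, *Cd5*, *Cd8a* and *Kit* in 4, *Il2ra* and *Eomes* in 3, and *Ikzf2* and *Ighm* in 2. None of those 7 was called without scrambled replicate 1 (edgeR adjusted p from 0.0506 for *Kit* to 0.126 for *Ikzf2*). The part of these marker differences in the values of *Lrpprc*, the pathway genes and the mitochondrial RNAs was not tested.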

How the data were processed

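The values used are each gene's estimated count in each library, in whole numbers and not normalized, as the authors deposited them in 1 table of Ensembl IDs. IDs were matched to symbols, which 52073 have. The submitters' processing notes name Kallisto, without a version, and the build GRCm38, and the annotation release and the way transcripts were summed to genes are not given in the sources used here. Of 56748 gene IDs, 4623 are not in GENCODE M21, from which coordinates, transcript lengths and shared 31-base stretches were taken, so stretches shared with those genes were missed. All 6 columns were used, and the table holds no columns of comparisons. From the counts, edgeR 4.0.16 in R 4.3.3 kept 14936 genes (filterByExpr defaults), scaled libraries by TMM and compared the labels by a two-sided quasi-likelihood test with robust estimates, and p was adjusted by Benjamini-Hochberg over all tested genes. Log2 values for correlations had 0.5 CPM added. Single values were compared with exact permutation tests over the 6 libraries. The procedure was tested on simulated data. Intervals and floors (3 counts) cover counting error or the spread between these libraries only. The labels number the samples, and the paper gives 3 biological replicates. Neither says that equal numbers share an animal, so p-values measure the spread among these samples. Replicate pairs differed beyond sampling noise (chi-square per degree of freedom from 7.40 to 27.1).

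The 10 factors and all lists were chosen with earlier results of these data known. Genes named are the 10 factors, *Pgam1* and *Pgam2*, every mitochondrially encoded mRNA and rRNA, in each other list up to 4 that rose and up to 4 that fell with the lowest p among those past the threshold, pathway genes absent from the test, and the 5 most like *Lrpprc*. Other genes, namely *Polg*, *Nrf1*, *Gabpa*, *Esrra*, *Yy1*, *Myc*, *Mterf1a*, *Mterf1b*, *Tmem263*, *Snw1*, *Gm1818*, *Mrpl43*, *Gm28438*, *Gm26515*, *Fastk*, *Fastkd3*, *Rcc1l*, *mt-Tl1*, *mt-Tw*, *mt-Tg*, *mt-Th*, *mt-Ts2*, *mt-Tl2*, *mt-Te*, *mt-Ty*, *mt-Tc*, *mt-Tn*, *Cd8b1*, *Cpa3*, *Klrb1c*, *Cd4*, *Lyz2*, *Alas2*, *Ncr1*, *Ifih1* and *mt-Tp*, were named after their values were seen. The alternatives were DESeq2 1.42.0, limma-voom (limma 3.58.1), RLE size factors, library size alone, no filter on low counts, a minimum of 10 counts in all libraries, mitochondrially encoded (37) and ribosomal protein (90) genes left out, a block for replicate number, omission of each library and an adjusted p under 0.01. For the share of mitochondrial mRNAs the alternative was a total over kept genes, and for ratios 0.5 counts were added. Sums of listed genes with the genes sharing at least 10% of their stretches were added after seeing the data. *Pus1* was not summed, because no count was available for *Gm26515*, which shares 20.4% of its stretches.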

Additional observations from a re-analysis of the deposited data

How the results depend on the processing

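The direction and side of the threshold of the 10 factors held in 149 of 160 comparisons with an alternative. As 9 of the 10 were not called in the main fit, most of these comparisons held with no call on either side. *Lrpprc*, the 1 called, was called in 2 of the 6 fits that left out a library. It was not called with replicate number as a block or at an adjusted p under 0.01. With DESeq2, limma-voom, library size alone, RLE size factors, mitochondrial and ribosomal genes left out and at least 10 counts in every library, 1 factor was higher and 0 lower. Factors called higher numbered 2 with no filter on low counts and 0 at an adjusted p under 0.01, and with single libraries left out they ran from 0 to 2. All tested genes called numbered 2565 in the main fit and 453 at an adjusted p under 0.01. With single libraries left out they ran from 391 to 3484, fewer than in the main fit in 4 of the 6 fits and more in the others. Pathway genes called numbered 21 with no filter and 0 at an adjusted p under 0.01, and ran from 0 to 22 with single libraries left out. Mitochondrially encoded mRNAs called lower ran from 7 to 10 over all alternatives. Values that changed sign were *Slirp* summed with *Snw1* (log2 fold change -0.0834), *Mterf2* summed with *Tmem263* (0.010, mostly counts of *Tmem263*), *Fastk* (-0.015), *Alas2* (0.240) and *mt-Ty* (0.1204) summed likewise, *Supv3l1* with single libraries left out (from -0.0511 to 0.142) and *mt-Nd1*, at -0.026 with library size alone, -0.0014 with at least 10 counts in every library, and from -0.060 to 0.076 with single libraries left out. The cause was not tested.

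With replicate number as a block, 0 factors, 4 pathway genes, 8 mitochondrially encoded mRNAs and 1235 of all tested genes were called, and *Lrpprc* had a log2 fold change of 0.39 (adjusted p = 0.0637 by edgeR). As a check of pairing, deviations from the label means of equal-numbered libraries correlated across genes between -0.282 and 0.0787, and 1 of 6 libraries correlated best with its own number, so the numbers were not taken as pairs. *Slirp* had 24 to 93 counts per library, and the part of depth in its uncertain value was not tested.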

Other observations

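The factors reach mitochondria through the protein import machinery and are folded there by chaperones. Of 12 genes for import and protein quality control, all tested, 3 were higher and 0 lower. Their median log2 fold change was 0.41, beside -0.01 for all tested genes. All 12 fitted values were above 0, as were 7378 of the 14936 over all tested genes. The 25.0% higher stands beside 8.03% of all tested genes. *Hspa9*, the chaperone that pulls proteins into the matrix, had 337 ± 54.8 CPM in the scrambled-labelled libraries and 494 ± 75.1 CPM in the *Pgam*-labelled ones (SD, n = 3; log2 fold change 0.55, edgeR adjusted p = 0.0283). The receptor and channel components *Timm50* and *Tomm40* had log2 fold changes of 0.48 and 0.53 (edgeR adjusted p = 0.0348 and 0.0387). These groups did not overlap, and like *Lrpprc* the 3 genes were not called without scrambled replicate 1 (edgeR adjusted p = 0.0712, 0.0999 and 0.106), without *Pgam* replicate 1 (0.0958, 0.1205 and 0.121) or without *Pgam* replicate 2 (0.111, 0.123 and 0.125). *Timm50* and *Tomm40* also lost their call without scrambled replicate 2 (edgeR adjusted p = 0.0806 and 0.109).

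PNPT1 and SUPV3L1 are known to keep double-stranded mitochondrial RNA from reaching sensors in the cytosol. Of 5 genes for such sensing, 4 were tested and 0 were called by edgeR in either direction, with 2 at an unadjusted p under 0.05 and a median log2 fold change of 0.22. *Ifih1* had 38.5 ± 1.12 against 46.0 ± 2.87 CPM (SD, n = 3; log2 fold change 0.25, edgeR adjusted p = 0.0785), and *Tlr3* had a count of 0 in all 6 libraries.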
